A study of Mus musculus with 8 samples.

Results

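Transcripts of the unfolded protein response and of ER-associated degradation were compared between cKO and control hearts at E11.5. The 35 genes were taken by symbol from a table of 23846 gene entries. They comprise 8 sensors and regulators of the response, 11 chaperones and cochaperones of the endoplasmic reticulum (ER), 4 enzymes of disulfide formation in the ER, and 12 genes of ER-associated degradation (ERAD). Whole hearts gave 4 cKO libraries (genotype Ogt f/y with TnT-Cre, in which Cre under the cardiac troponin T promoter removes Ogt from cardiomyocytes) and 4 littermate control libraries, whose exact genotypes are not given. Ogt encodes the transferase that adds O-GlcNAc to nuclear and cytoplasmic proteins and is X-linked. Floxed females were bred to males carrying the transgene, so every knockout was male, while the sex of the controls was not stated. The strain is labelled B6, whereas the methods describe a mixture of 129/SvJ and C57BL/6J. Endothelial, epicardial, mesenchymal and blood cells keep an intact Ogt in these hearts. Whether each library came from a single heart is not stated, so the p-values measure the spread between these libraries.

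Proteins that enter the ER are folded there by chaperones and by enzymes that form disulfide bonds. When unfolded proteins build up, the sensors IRE1 (Ern1), PERK (Eif2ak3) and ATF6 start the unfolded protein response: IRE1 splices the mRNA of Xbp1, PERK slows translation and favours that of Atf4, and ATF6 is cut in the Golgi to release a transcription factor. ATF6 and XBP1 act on chaperone and ERAD genes through short promoter elements, and ERAD draws misfolded proteins back into the cytosol, where the ATPase VCP hands them to the proteasome. Much of this signalling runs through splicing, phosphorylation and cleavage, which FPKM of whole genes (fragments scaled to transcript length and to the mapped fragments of the library) do not measure.

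In cKO hearts, Svip fell to a mean FPKM 2.56-fold below that of control hearts, Atf6 rose, and most chaperones, enzymes and sensors of the response did not pass the test. Of the 35 genes, 34 had a mean of at least 1 FPKM and were tested. By limma with Benjamini-Hochberg adjustment over 12629 entries, 3 were higher in cKO hearts (Atf6, Dnajb11 and Creld2), 4 were lower (Svip, Sel1l, Vcp and Canx), and 27 did not pass an adjusted p of 0.05. The 7 called genes were 20.6% of those tested, against 30.7% of all entries tested (15.9% higher and 14.9% lower). The median log2 difference, cKO minus control, was -0.03 over the 34 genes and 0.02 over all entries, and 13 of the 34 differences were positive. For 7 of the 34 genes, the same 7 that were called, the 4 cKO libraries all lay on one side of the 4 control libraries, against 32.8% of all entries. Svip was the one gene of the set that was called and differed by more than 1.5-fold, while 3.58% of all entries were both called and past that fold (1.65% lower). The 27 genes that did not pass had log2 differences of -0.13 to 0.19, and for all 27 the 95% interval lay within 1.5-fold in either direction. In whole hearts, fewer cells of a type and less RNA per cell cannot be told apart.

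**Figure D1:**
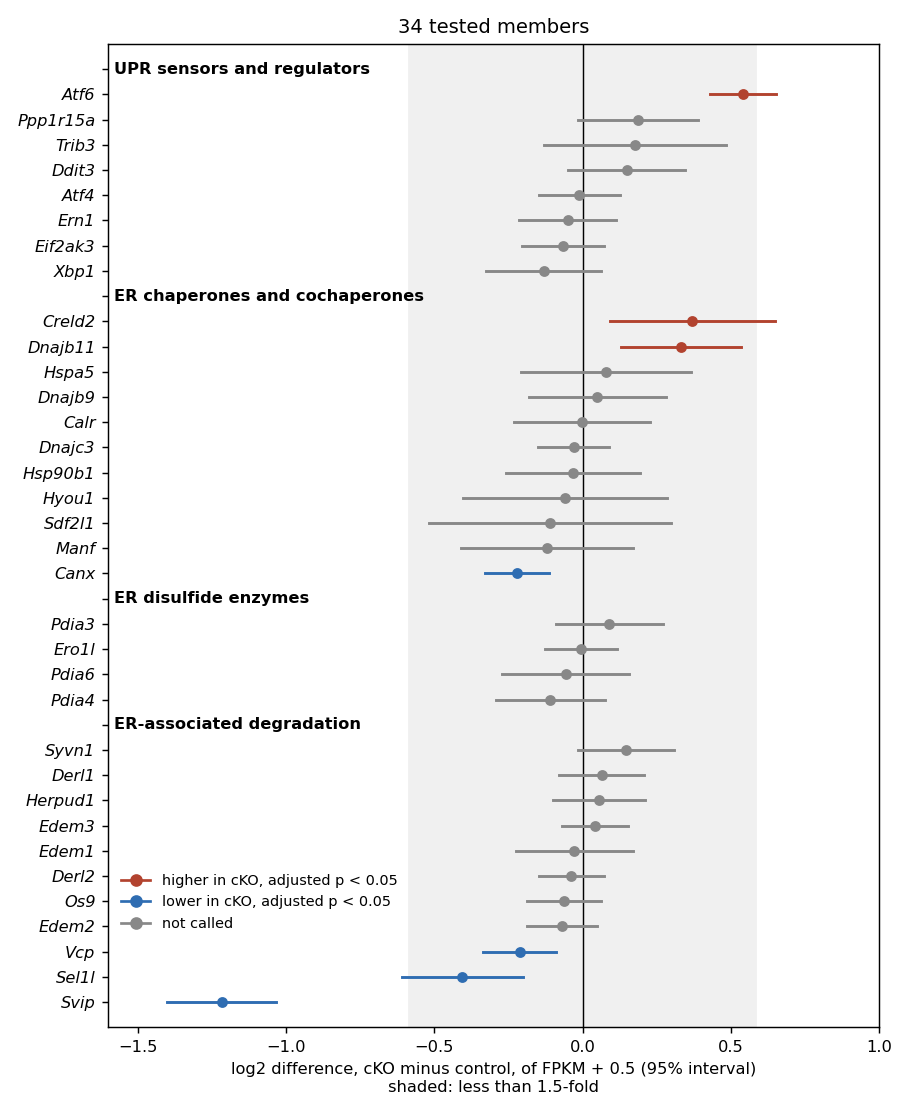
Log2 difference between cKO and control hearts (cKO minus control, of FPKM + 0.5) for the 34 tested genes, ordered by size within each role, with 95% intervals from limma; red and blue mark genes higher and lower in cKO hearts at an adjusted p under 0.05, and grey marks the 27 that did not pass. All grey intervals lie inside the shaded band of 1.5-fold, and Svip at -1.22 lies outside it.

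The promoter elements of the response are shown first, since they are known binding elements of the factors described here. Promoters from 250 bases before to 50 bases after each RefSeq start (GRCm38.p6, the assembly of mm10) were matched for 31 of the 35 genes, in 33 windows. Both strands were searched for the ER stress response element ERSE (CCAAT and CCACG with 9 free bases between them), for ERSE-II (ATTGG and CCACG with 1 free base between them), for an unfolded protein response element (UPRE, TGACGTGG) and for the element that ATF4 binds with C/EBP factors (CARE, TGATG and AAT with 1 free base between them). Of all 32851 promoters, 0.119% held an ERSE, 0.0365% an ERSE-II, 0.676% a UPRE and 0.965% a CARE. An ERSE was found in 9 of the genes, an ERSE-II in 2, a UPRE in 1 and a CARE in 0, and no match overlapped another. These are matches of letters and were not measured as binding sites. The ERSE matches follow, each read on the strand where it reads CCAAT to CCACG, with the fixed bases in capitals.
Creld2 (chr15:88819520-88819538): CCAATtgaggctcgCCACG
Canx (chr11:50325800-50325818): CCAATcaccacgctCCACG
Hspa5 (chr2:34772025-34772043): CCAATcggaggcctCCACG
Hsp90b1 (chr10:86705638-86705656): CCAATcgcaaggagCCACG
Hsp90b1 (chr10:86705533-86705551): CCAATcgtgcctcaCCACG
Calr (chr8:84847075-84847093): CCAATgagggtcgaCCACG
Pdia6 (chr12:17266491-17266509): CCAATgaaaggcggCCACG
Dnajc3 (chr14:118937827-118937845): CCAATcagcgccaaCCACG
Syvn1 (chr19:6046532-6046550): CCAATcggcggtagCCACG
Derl3 (chr10:75893242-75893260): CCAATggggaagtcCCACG

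Of these 9 genes with an ERSE, 8 were tested. Creld2 was higher, Canx was lower and 6 were not called, against 15.9% higher and 14.9% lower among all entries. The log2 differences of the 8 genes ran from -0.22 (Canx) to 0.37 (Creld2), and the genes include the most abundant chaperones. The element of Hspa5 starts 65 bases before the transcription start and that of Creld2 126 bases before it, on the opposite strand. The other matches are given in the same way, for Dnajb11, Herpud1 and Vcp.
Dnajb11 (chr16:22857852-22857862): ATTGGcCCACG
Herpud1 (chr8:94386377-94386387): ATTGGgCCACG
Vcp (chr4:43000614-43000621): TGACGTGG

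The element of Dnajb11 starts 7 bases past the annotated start, that of Herpud1 52 bases before it and that of Vcp 114 bases before it. The whole promoters are printed for Svip, which differed most and held no match, and for the 4 called genes with a match. They run 5′ to 3′ on the strand of the gene, with the fixed bases of a match in capitals. Svip has another annotated promoter window, also without a match.
Svip (chr7:52005969-52006268): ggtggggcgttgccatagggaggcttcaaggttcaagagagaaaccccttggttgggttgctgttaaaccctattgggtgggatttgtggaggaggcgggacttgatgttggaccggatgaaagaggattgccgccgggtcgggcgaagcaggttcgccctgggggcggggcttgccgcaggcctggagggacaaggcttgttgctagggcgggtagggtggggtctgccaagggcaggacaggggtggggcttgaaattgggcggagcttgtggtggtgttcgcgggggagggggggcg
Canx (chr11:50325624-50325923): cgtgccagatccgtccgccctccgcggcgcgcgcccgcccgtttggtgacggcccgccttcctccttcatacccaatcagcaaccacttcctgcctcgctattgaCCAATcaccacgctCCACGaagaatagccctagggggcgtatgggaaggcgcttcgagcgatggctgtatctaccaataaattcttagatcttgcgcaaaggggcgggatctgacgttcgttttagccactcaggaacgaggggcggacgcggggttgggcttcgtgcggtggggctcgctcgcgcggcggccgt
Vcp (chr4:43000458-43000757): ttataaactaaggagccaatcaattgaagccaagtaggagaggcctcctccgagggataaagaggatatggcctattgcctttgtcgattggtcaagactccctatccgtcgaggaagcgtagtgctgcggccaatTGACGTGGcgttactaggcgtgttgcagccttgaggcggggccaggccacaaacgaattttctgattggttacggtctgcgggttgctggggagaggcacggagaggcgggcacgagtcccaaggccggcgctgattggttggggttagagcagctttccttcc
Dnajb11 (chr16:22857595-22857894): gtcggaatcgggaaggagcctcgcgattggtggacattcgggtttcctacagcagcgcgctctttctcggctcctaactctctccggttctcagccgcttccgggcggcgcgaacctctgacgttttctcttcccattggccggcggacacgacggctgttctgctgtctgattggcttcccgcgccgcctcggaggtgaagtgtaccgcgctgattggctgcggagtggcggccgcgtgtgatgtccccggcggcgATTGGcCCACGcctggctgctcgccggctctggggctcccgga
Creld2 (chr15:88819396-88819695): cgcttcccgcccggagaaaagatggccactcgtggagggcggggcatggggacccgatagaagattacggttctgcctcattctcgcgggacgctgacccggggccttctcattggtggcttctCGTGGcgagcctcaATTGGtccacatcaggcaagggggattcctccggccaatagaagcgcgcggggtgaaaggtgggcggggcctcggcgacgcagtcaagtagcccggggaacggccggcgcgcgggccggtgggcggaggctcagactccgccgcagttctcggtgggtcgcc

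Ogt, which checks the deletion, had 20.1, 21.6, 24.7 and 21.5 FPKM in cKO libraries 1 to 4, against 41.6, 43.3, 37.5 and 46.2 FPKM in control libraries 1 to 4. None of 10 cardiomyocyte markers was called, with summed levels of 19026 to 21476 FPKM in cKO and 18021 to 23079 FPKM in control libraries. Among all entries 15.9% were higher and 14.9% lower. Of 10 epicardial markers 7 were higher (summed 253 to 287 FPKM in cKO, 197 to 217 FPKM in control), of 8 endothelial markers 5 were lower (239 to 256 and 266 to 301 FPKM), of 4 tested smooth muscle markers 3 were lower (612 to 738 and 873 to 1046 FPKM), and of 9 mesenchymal markers 1 was higher (381 to 498 and 350 to 441 FPKM). The 3 lower smooth muscle markers were Acta2, Cnn1 and Smtn. Tagln, not called, averaged 335 FPKM in cKO and 290 FPKM in control hearts. Myh11, below the filter, averaged 0.399 FPKM in cKO and 0.235 FPKM in control hearts. No macrophage marker of 2 tested was called (5.04 to 6.86 and 4.93 to 7.71 FPKM). Of 8 markers of professional secretory cells, 7 had an entry, 4 were tested and 0 were called. Sdc1 had 15.9 to 18.3 FPKM in cKO and 15.4 to 18.4 FPKM in control libraries. Cpa1 averaged 2.02 FPKM in cKO and 1.66 FPKM in control hearts and Mzb1 0.265 and 0.346 FPKM, while Ins2 and Prss1 were listed at 0.001 FPKM, the lowest value of the table, in both groups. Haemoglobin took 6.58 to 9.23% of the FPKM in cKO and 3.31 to 12.0% in control libraries. The liver genes Afp and Alb stood at 35.2 and 8.44 FPKM in cKO library 3 and at no more than 0.15 FPKM in every other library. With haemoglobin genes left out, 3 genes of the set were higher and 4 were lower (30.4% of all entries called). Without cKO library 3, 2 genes of the set were higher and 3 were lower (25.6% of all entries called). The part of the other marker shifts in the results was not tested. The descriptions of the libraries carry a prefix, OGF355 for cKO 1, control 1 and control 2 and OGF373 for the other 5, whose meaning is not stated. The value columns and the titles carry OGF373 for all 8 libraries, so the labels conflict on the 3 OGF355 libraries.

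Atf6 was the only called gene among the 8 sensors and regulators. It encodes the membrane-bound transcription factor that is cleaved in the Golgi, and lies on chr1:170704674-170867771 (GRCm38, minus strand). Its level was 14.5, 15.2, 13.7 and 14.9 FPKM in cKO libraries, against 10.2, 9.83, 9.22 and 10.1 FPKM in control libraries. The 2 groups were far apart relative to the spread within each, at 14.6 ± 0.637 FPKM in cKO and 9.85 ± 0.450 FPKM in control hearts (SD, n = 4 each). The log2 difference was 0.54 (standard error 0.05, adjusted p = 0.000199 by limma), and 394 of the 12629 entries had a higher one. Atf6 stayed called without any single library and in each of the other alternatives.

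The 7 other regulators did not pass the test. Xbp1, the mRNA that IRE1 splices, had 43.3, 36.3, 38.4 and 34.4 FPKM in cKO libraries and 40.6, 45.0, 44.4 and 37.1 FPKM in control libraries, with a log2 difference of -0.13 (95% interval -0.33 to 0.06). The groups overlapped. Ern1, the gene of IRE1, had 2.65, 2.43, 2.49 and 2.50 FPKM in cKO and 2.64, 2.76, 2.28 and 2.86 FPKM in control libraries (log2 difference -0.05, interval -0.22 to 0.11). Eif2ak3, the gene of PERK, had 4.65, 4.08, 4.35 and 4.32 FPKM in cKO and 4.61, 4.71, 4.16 and 4.87 FPKM in control libraries (-0.07, interval -0.20 to 0.07). Both sensor kinases were expressed below the level of Atf6, with overlapping groups. Atf4, the transcription factor translated when PERK is active, was at 76.8 ± 3.99 FPKM in cKO and 77.4 ± 4.75 FPKM in control hearts (SD, n = 4 each), a log2 difference of -0.01 with an interval of -0.15 to 0.13.

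Downstream of PERK and ATF4, 3 genes had positive differences that did not pass. Ddit3, which encodes the pro-apoptotic factor CHOP, had 16.2, 15.6, 14.3 and 15.2 FPKM in cKO libraries and 11.8, 13.4, 16.1 and 14.2 FPKM in control libraries (log2 difference 0.15, adjusted p = 0.23 by limma). Control library 3 lay within the cKO range, and without it Ddit3 was called (0.22, adjusted p = 0.0399 by limma). The Ddit3 entry overlaps that of Mars (24.3 FPKM on average), and whether counting used the strand is not stated. Ppp1r15a, which encodes the phosphatase subunit GADD34 that restores translation, had 13.8, 15.9, 16.2 and 13.8 FPKM in cKO and 11.5, 12.5, 13.4 and 15.0 FPKM in control libraries (0.19, adjusted p = 0.149 by limma). Trib3, a pseudokinase induced by CHOP, had 1.91 to 2.80 FPKM in cKO and 1.70 to 2.58 FPKM in control libraries (0.18, interval -0.13 to 0.48).

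Among the 11 chaperones and cochaperones, Dnajb11 and Creld2 were higher in cKO hearts and Canx was lower. The 3 most abundant chaperones, each over 400 FPKM on average, did not pass. Hspa5, which encodes the HSP70 chaperone BiP that also holds the sensors inactive, had 617, 482, 450 and 469 FPKM in cKO libraries and 520, 530, 466 and 395 FPKM in control libraries (log2 difference 0.08, interval -0.21 to 0.36). Hsp90b1, the ER member of the HSP90 family, had 530, 460, 438 and 459 FPKM in cKO and 513, 526, 493 and 404 FPKM in control libraries (-0.03, interval -0.26 to 0.19). Calr, encoding the lectin chaperone calreticulin, had 513, 432, 432 and 453 FPKM in cKO and 507, 501, 443 and 388 FPKM in control libraries (-0.0030, interval -0.23 to 0.23). In all 3, cKO library 1 was the highest of its group and control library 4 the lowest of its own, and within each group the ranges of the 3 genes overlapped.

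Dnajb11 encodes ERdj3, a soluble J-domain cochaperone of BiP, on chr16:22857845-22879634 (plus strand). It had 87.7, 78.4, 75.5 and 78.6 FPKM in cKO libraries, against 67.1, 67.1, 68.0 and 52.9 FPKM in control libraries. Control library 4 was far below the other controls, yet the lowest cKO library was still above the highest control. The log2 difference was 0.33 (standard error 0.09, adjusted p = 0.0225 by limma), and it did not pass without cKO library 1 or cKO library 4 (adjusted p = 0.0524 to 0.0589). Creld2, an ER protein induced under ER stress that takes part in disulfide exchange, lies on chr15:88819646-88826683 (plus strand). It had 53.5, 41.6, 39.3 and 38.9 FPKM in cKO libraries and 33.8, 37.2, 34.9 and 27.4 FPKM in control libraries. The gap between the groups was small, with 38.9 FPKM in cKO library 4 against 37.2 FPKM in control library 2. Its log2 difference was 0.37 (standard error 0.12, adjusted p = 0.0488 by limma), and leaving out any single library, 8 of 8, ended the call (adjusted p = 0.0514 to 0.102).

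Canx encodes calnexin, the membrane-bound lectin chaperone of glycoproteins, on chr11:50293961-50325673 (minus strand). It had 142, 134, 137 and 142 FPKM in cKO libraries, against 164, 164, 165 and 155 FPKM in control libraries. The difference was modest and the groups were tight, with a log2 difference of -0.22 (standard error 0.05, adjusted p = 0.00843 by limma), and the call held without any single library. The 5 other chaperone genes had overlapping groups: Hyou1, an HSP110-type exchange factor, had 23.1 to 31.1 FPKM in cKO and 21.4 to 33.0 FPKM in control libraries. Manf, a secreted stress-induced protein, had 46.2 to 59.7 FPKM in cKO and 43.1 to 63.3 FPKM in control libraries. Sdf2l1, a partner of ERdj3, had the widest interval of the set (-0.52 to 0.30), with 22.2 to 30.2 FPKM in cKO and 17.8 to 31.9 FPKM in control libraries. Dnajb9 (ERdj4) and Dnajc3 (p58IPK) are further J-domain cochaperones. Dnajb9 was at 12.8 ± 1.29 FPKM in cKO and 12.3 ± 1.61 FPKM in control hearts, and Dnajc3 at 16.4 ± 0.768 FPKM in cKO and 16.7 ± 0.896 FPKM in control hearts (SD, n = 4 each).

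None of the 4 disulfide enzymes was called, nor was any at an unadjusted p under 0.05. Pdia3 (ERp57), which works with calnexin and calreticulin, was at 307 ± 20.3 FPKM in cKO and 289 ± 24.8 FPKM in control hearts (SD, n = 4 each), a log2 difference of 0.09. The differences of the protein disulfide isomerases Pdia4 and Pdia6 were -0.11 and -0.06. Ero1l, the oxidase that recharges them, was at 26.0 ± 1.68 FPKM in cKO and 26.1 ± 0.754 FPKM in control hearts (SD, n = 4 each), a difference of -0.01 with an interval of -0.13 to 0.11. The entries of Pdia4 and Pdia6 overlap those of Mir704 and Atp6v1c2.

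**Figure D2:**
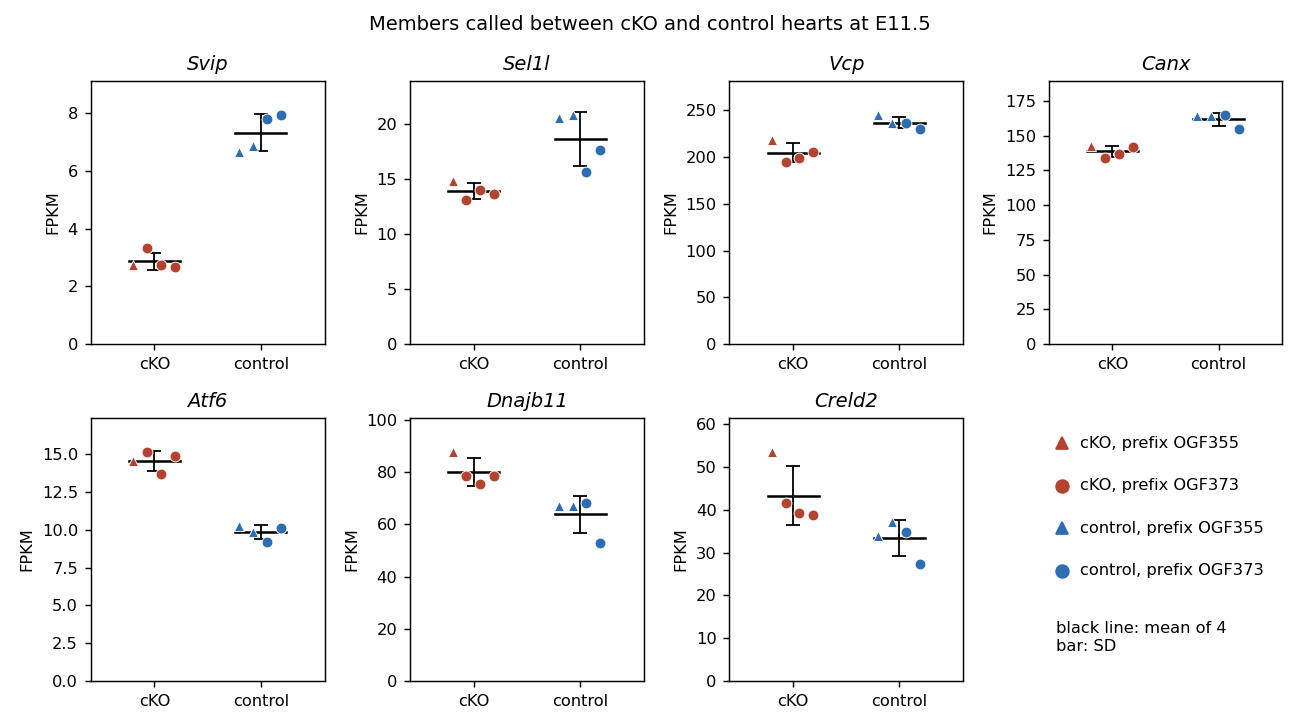
FPKM of the 7 called genes in each library (cKO left in red, control right in blue; triangles mark libraries with the prefix OGF355 and circles those with OGF373), with the mean and SD of 4 libraries; axes start at 0. The groups do not overlap in any panel, and Svip is the gene with the largest relative gap, at 2.68 to 3.32 FPKM in cKO and 6.67 to 7.93 FPKM in control libraries.

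In ERAD, 3 of 11 tested genes were lower in cKO hearts and none was higher, against 14.9% lower and 15.9% higher among all entries. Svip, which encodes the small VCP-interacting protein, an inhibitor of ERAD on the ER membrane, had 2.73, 3.32, 2.73 and 2.68 FPKM in cKO libraries, against 6.67, 6.88, 7.81 and 7.93 FPKM in control libraries. The highest cKO library and the lowest control library were thus 3.32 and 6.67 FPKM, and cKO library 2 stood above the rest of its group. The log2 difference was -1.22 (standard error 0.08, adjusted p = 5.83e-05 by limma). Only 73 of the 12629 entries had a lower one, and Svip was called in all 21 alternatives. The gene lies on chr7:51997171-52006018 (GRCm38, minus strand), with 2 coding transcripts among 3 in GENCODE. Its entry overlaps no other.

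Sel1l encodes the adaptor of the HRD1 ubiquitin ligase and lies on chr12:91806043-91849157 (minus strand). It had 14.8, 13.1, 14.0 and 13.7 FPKM in cKO libraries, against 20.6, 20.8, 15.7 and 17.7 FPKM in control libraries. The cKO libraries were tight and the control libraries spread widely, the nearest pair being 14.8 FPKM in cKO library 1 and 15.7 FPKM in control library 3. The log2 difference was -0.41 (standard error 0.09, adjusted p = 0.00983 by limma), and the call held without any single library. Vcp, the ATPase that extracts ERAD substrates and has many roles outside the ER, lies on chr4:42979963-43000507 (minus strand) and had 218, 195, 199 and 205 FPKM in cKO libraries, against 245, 237, 236 and 230 FPKM in control libraries. Its groups were separated by a narrow gap, with a log2 difference of -0.21 (standard error 0.05, adjusted p = 0.017 by limma), and it did not pass without cKO library 2, 3 or 4 (adjusted p = 0.0509 to 0.0619).

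The other ERAD genes did not pass. Syvn1, which encodes HRD1 itself, had 12.1, 10.1, 12.1 and 10.9 FPKM in cKO and 10.6, 10.8, 9.26 and 9.92 FPKM in control libraries (log2 difference 0.15, interval -0.02 to 0.31). The entry of Syvn1 overlaps that of Mrpl49 (34.3 FPKM on average). Herpud1, which links HRD1 to other ERAD proteins, was at 21.1 ± 1.74 FPKM in cKO and 20.3 ± 1.3 FPKM in control hearts (SD, n = 4 each). The derlins Derl1 and Derl2, channel-like proteins of retrotranslocation, had differences of 0.06 and -0.04. Derl3, the derlin of secretory cells, stayed below the filter at 0.963, 0.600, 0.587 and 0.827 FPKM in cKO and 1.16, 1.18, 0.760 and 0.632 FPKM in control libraries. Edem1, Edem2 and Edem3, which take part in trimming mannose from misfolded glycoproteins, had differences of -0.03, -0.07 and 0.04, and Os9, a lectin that passes such proteins to HRD1, had -0.06. Without control library 3, Os9 was called (-0.11, adjusted p = 0.0485 by limma).

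**Figure D3:**
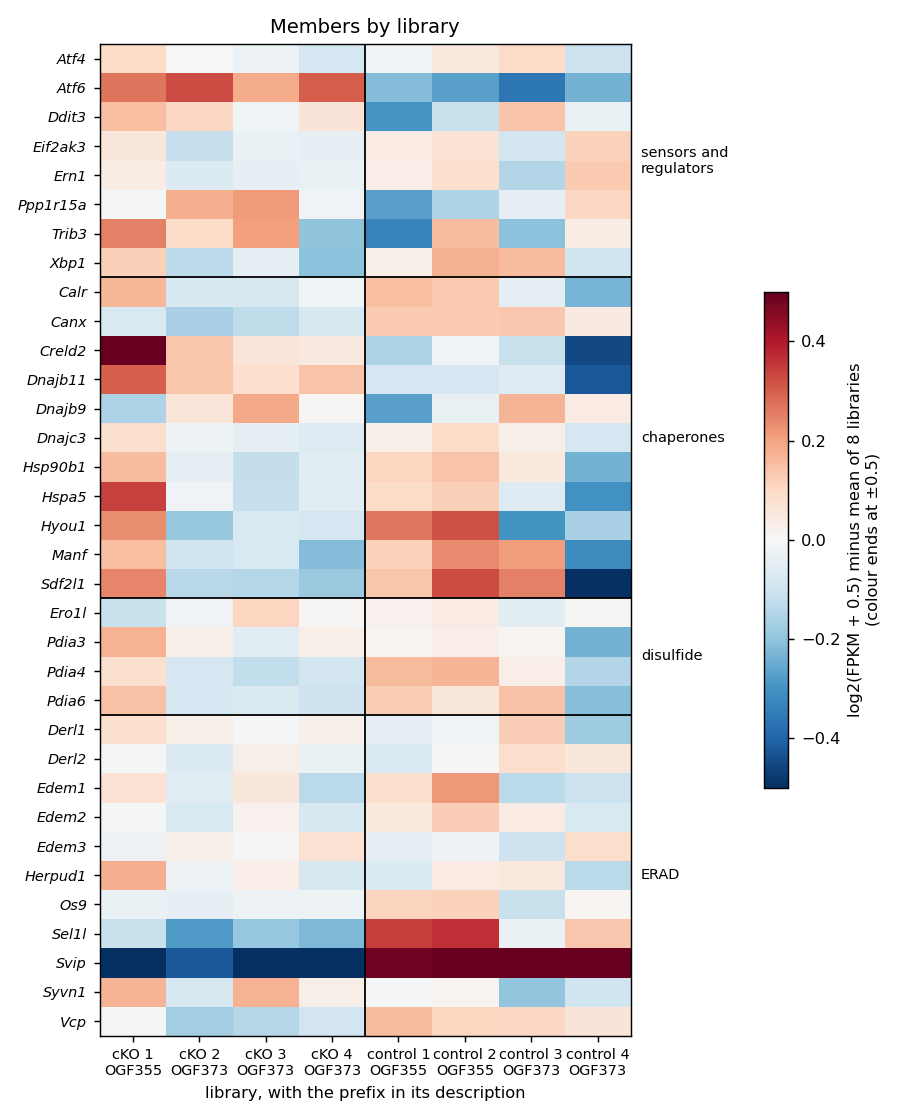
Log2(FPKM + 0.5) of the 34 tested genes in each library minus the mean of the 8 libraries (rows grouped by role, columns cKO 1 to 4 then control 1 to 4, with the prefix under each; colours end at 0.5 in either direction). Svip and Atf6 divide by group, while in most chaperone rows cKO 1, control 1 and control 2 are red and control 4 is blue.

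Within each group the chaperone and disulfide genes were mostly high or low in the same libraries. The summed FPKM of these 15 genes was 2821, 2399, 2333 and 2407 in cKO libraries and 2648, 2674, 2504 and 2108 in control libraries, so the groups overlapped. As a share of all FPKM outside haemoglobin, the sum was 0.519, 0.441, 0.431 and 0.458% in cKO libraries and 0.508, 0.506, 0.414 and 0.407% in control libraries. The 3 libraries with the prefix OGF355 had the 3 highest shares. cKO library 1 was the highest of its group for 13 of the 15 genes (24 of the 34), and control library 4 the lowest of its group for 12 of the 15 (18 of the 34). How often these libraries were highest or lowest among all entries was not counted, so a shift of the whole library cannot be told apart.

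The comparison between prefixes was chosen after seeing the data. The 15 genes were mostly high or low in the same libraries, so they are not separate observations. All 3 OGF355 libraries were above all 5 OGF373 libraries for Hspa5, Hsp90b1, Hyou1, Calr and Pdia4, 5 of the 15 genes (33.3%), against 3.59% of all entries. Hyou1, for example, had 31.1, 31.8 and 33.0 FPKM in the OGF355 libraries and 21.4 to 25.0 FPKM in the OGF373 libraries. Dnajb9 was separated in the opposite direction and Edem1 in the same one, so that 7 of the 34 genes (20.6%) were separated in either direction, against 7.32% of all entries. In a limma fit with genotype and prefix together, none of the 34 genes passed for the prefix, and 12 had an unadjusted p under 0.05. Among all entries 12 passed (0.095%), and 1957 of the 12629 had an unadjusted p under 0.05. The closest of the set was Hyou1 (log2 difference 0.45, OGF355 minus OGF373, standard error 0.06, adjusted p = 0.0532 by limma). The same fit gave 3 higher and 4 lower genes for the genotype (32.2% of all entries called). The cKO and control libraries of the 7 called genes do not overlap, so their sign could not differ between prefixes. Among OGF355 libraries only cKO library 1 is a knockout. Svip differed by -1.17 among OGF355 and -1.30 among OGF373 libraries, Atf6 by 0.51 and 0.57, and Sel1l by -0.47 and -0.29. In a fit of the 5 OGF373 libraries alone, added after seeing the data, Svip and Atf6 were called, and Canx, Sel1l, Vcp, Dnajb11 and Creld2 were not (adjusted p = 0.0614 to 0.116 by limma), with 11.6% of all entries called. In that fit the log2 difference was -0.21 for Canx, -0.22 for Vcp, 0.37 for Dnajb11 and 0.36 for Creld2, against -0.22, -0.21, 0.33 and 0.37 in all 8 libraries, and for Sel1l it was -0.29 against -0.41.

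Further genes of the secretory pathway were counted in 7 lists with 169 genes, of which 157 were tested. In these lists 20 genes were higher in cKO hearts and 17 were lower (23.6% called, against 30.7% of all entries, 15.9% higher and 14.9% lower). None passed 1.5-fold on the scale of log2(FPKM + 0.5), and the mean FPKM of Tmub1 and of Eif2ak4 was 1.54-fold lower in cKO hearts. After quantile normalization the counts were 18 higher and 27 lower (34.4% of all entries called). Leaving out 1 library moved the count of higher genes by over 1.5 times for 7 libraries, to 10, 10 and 9 without cKO library 2, 3 or 4 and to 11, 13, 33 and 13 without control library 1, 2, 3 or 4. It moved that of lower genes for 3, to 9 and 8 without cKO library 2 or 4 and to 11 without control library 2. In the 8 fits without a single library, 21.0 to 39.2% of all entries were called. The median log2 difference was 0.01. In the list of other ERAD genes, 6 of 28 were higher and 3 were lower. Nploc4, the VCP cofactor that binds ubiquitinated substrates, had 30.4, 29.0, 28.5 and 29.9 FPKM in cKO libraries, against 22.2, 21.0, 19.0 and 21.1 FPKM in control libraries (log2 difference 0.49, adjusted p = 0.000422 by limma). Nploc4 was thus higher and Vcp, its partner, lower. Erlin1, a membrane protein of the degradation of IP3 receptors, was higher by 0.40. Tmub1, a membrane protein with a ubiquitin-like domain, was lower (log2 difference -0.58, adjusted p = 0.00564 by limma).

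Of 31 other folding genes, 4 were higher and 4 were lower, against 15.9% and 14.9% of all entries. Sil1, a nucleotide exchange factor of BiP, had 7.78, 7.24, 7.79 and 7.29 FPKM in cKO libraries, against 9.77, 9.65, 10.5 and 9.34 FPKM in control libraries (log2 difference -0.36, adjusted p = 0.00102 by limma). The prolyl isomerases Fkbp7 and Fkbp9 were also lower (-0.41 and -0.19), while Sdf4, a calcium-binding protein of the Golgi, was higher (0.31). Of 19 stress transducers and death regulators, 5 were higher and 2 were lower. Creb3, a relative of Atf6 that is cleaved in the same way, was higher by 0.42, and Mbtps2, the site-2 protease that cuts both, by 0.24. Wfs1, an ER membrane protein whose loss causes Wolfram syndrome in humans, was lower (-0.46), and Nfe2l2, which encodes the oxidative stress factor NRF2, was higher (0.19). Fkbp9 was no longer called without cKO library 2 or 4 or control library 1 or 2 (adjusted p = 0.0511 to 0.0674 by limma), nor Nfe2l2 without cKO library 2, 3 or 4 or control library 1 (0.0555 to 0.0693).

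Of 27 genes listed as targets of ATF4, kinases of eIF2 or other genes of eIF2 and its control, 3 were higher and 4 were lower, against 15.9% and 14.9% of all entries. Eif2ak4, the gene of the amino acid sensor GCN2, had 4.35, 3.97, 4.60 and 4.07 FPKM in cKO libraries, against 7.33, 7.11, 5.62 and 6.13 FPKM in control libraries (log2 difference -0.56, adjusted p = 0.00186 by limma). Slc7a5, an amino acid transporter, was lower by the same test (-0.43), as was Psat1 of serine synthesis (-0.33), whereas Gars, the glycyl-tRNA synthetase, was higher (0.49). The targets thus differed in sign, next to an Atf4 transcript with a difference of -0.01. In the translocon list 1 of 20 genes was higher and 2 were lower, in the oligosaccharyltransferase 0 of 11 and 1, and in COPII and ER export 1 of 21 and 1. Sec61a2, a minor form of the channel subunit, was lower (-0.31, adjusted p = 0.000778 by limma), and Sec22b, a SNARE of traffic between ER and Golgi, was higher (0.38, adjusted p = 0.00293 by limma). The others were Ssr2 (0.19), Ssr3 (-0.17), Tmem258 (-0.29) and Lman1 (-0.15). Each of these 4 lost its call in 5 to 7 of the 8 fits without a single library, with adjusted p of 0.0623 to 0.128 for Ssr3, 0.0869 to 0.12 for Ssr2, 0.0593 to 0.114 for Tmem258 and 0.0627 to 0.105 for Lman1. The fits that kept the call were those without control library 3 or 4 for Ssr3, without control library 3 for Ssr2, without control library 1 or 3 for Tmem258, and without cKO library 3 or control library 3 or 4 for Lman1.

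Outside the ER, 8 of 27 tested cytosolic chaperones were higher in cKO hearts and 0 were lower, against 15.9% and 14.9% of all entries. In either direction 29.6% of these chaperones were called, against 30.7% of all entries. Cryab, the small heat shock protein αB-crystallin of muscle, had 377, 370, 332 and 389 FPKM in cKO libraries, against 255, 239, 295 and 243 FPKM in control libraries (log2 difference 0.51, adjusted p = 0.0025 by limma). Hspb1, the related HSP27, was higher by 0.52 and the cochaperone Dnajc7 by 0.29. Hspa1b was higher by 0.50 at about 1 FPKM and was not called without cKO library 1 or control library 1 (adjusted p = 0.0555 to 0.0559 by limma). It is nearly identical to Hspa1a, which is also among the 8 (0.45). Their reads are uncertain, and the same signal may be counted for both. Of the 8, only Cryab, Hspb1, Dnajc7 and Hspa1b were followed through the alternatives. Of 31 proteasome subunits 2 were higher and 1 was lower: Psmb7 (0.38), Psmd8 (0.26) and Psmd14 (-0.27). Psmd8 was called in the fit without control library 3 and in none of the 7 others without a single library (adjusted p = 0.056 to 0.0709 by limma).

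**Figure D4:**
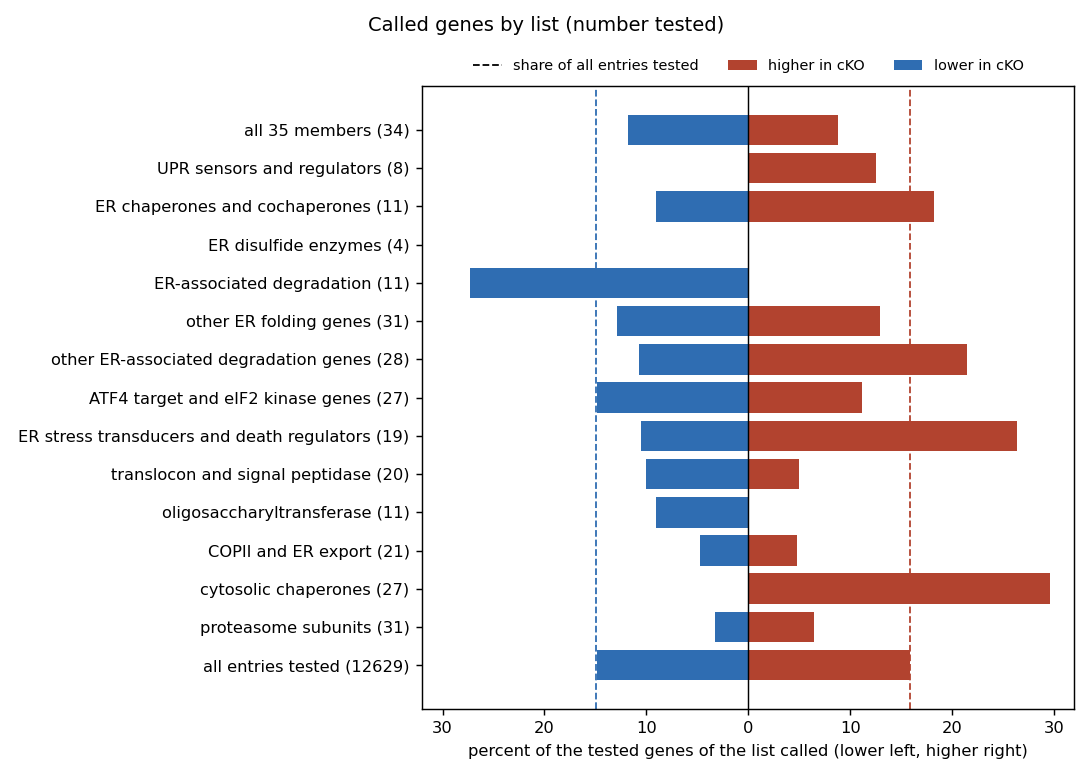
Percent of the tested genes of each list that were called higher (red, right) or lower (blue, left) in cKO hearts, with the number tested in brackets and the share among all entries as dashed lines at 15.9% and 14.9%. The ERAD genes of the set have 3 of 11 lower and none higher, the disulfide enzymes none called, and the cytosolic chaperones 8 of 27 higher and none lower.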

How the data were processed

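Poly(A) RNA of whole E11.5 hearts was sequenced by the authors with a stranded mRNA kit. Reads were aligned to mm10 with TopHat2 and Bowtie2 (versions and gene annotation not given in the sources used here), and the deposited values are FPKM per gene entry, normalized by transcript length and library depth. Read counts were not used here, so depth is unknown. The deposited table also holds a p-value per entry, which was not used, and text codes for low data in 1.32% of the deposited FPKM cells. Of 23846 entries, 23521 had a number in all 8 libraries, and the 12629 whose mean reached 1 FPKM went into a limma 3.58.1 fit of log2(FPKM + 0.5) (R 4.3.3, statmod 1.5.0) with group means, empirical Bayes variances with a trend, and Benjamini-Hochberg adjustment over all entries tested. Calls were made below an adjusted p of 0.05. The procedure was tested on simulated data. The simulation drew each gene and library independently, so shifts shared by the genes of a library were not covered.

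The 35 genes and the lists were chosen with earlier results of these data known. All 35 are named. From each other list the up to 4 called genes with the smallest adjusted p are named, except 1 that is not reported here. Promoters and starts are from RefSeq (GRCm38.p6), and gene positions are from GENCODE for the same assembly. No promoter was matched for Atf6, Hyou1, Manf and Derl1. Figures were drawn with Python 3.11.15 and matplotlib 3.10.9. Alternatives were a pseudocount of 0.1 or 1, a filter at 5 FPKM or none, scaling by quantiles or by median ratio, haemoglobin genes left out, variances without a trend or robust ones, array weights, a block for the replicate number, the description prefix as a covariate, leaving out each library, and, chosen after seeing the data, the OGF373 libraries alone.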

Additional observations from a re-analysis of the deposited data

Results flagged for a closer look

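Of 70 groups of 4 libraries examined, 2 for each of the 35 genes, 6 had a library far from the other 3, where chance flags about 1 in 20 groups. In cKO hearts this was library 1 for Sdf2l1 at 30.2 FPKM (the other cKO libraries at 22.2 to 23.0 FPKM) and Pdia6 at 259 FPKM (218 to 223 FPKM), and library 2 for Svip at 3.32 FPKM (2.68 to 2.73 FPKM). In control hearts it was library 4 in each case, with Canx at 154.7 FPKM (the other controls at 164 to 165 FPKM), Dnajb11 at 52.9 FPKM (67.1 to 68.0 FPKM) and Pdia3 at 252 FPKM (299.8 to 304 FPKM). Of the genes named here, Canx, Dnajb11 and Svip were called between cKO and control hearts.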

How the results depend on the processing

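The 7 called genes kept their direction in each of 21 alternatives. Their cKO and control libraries do not overlap, so most alternatives could not have changed it. Only those that rescale the libraries could (quantiles, median ratio or haemoglobin genes left out). Svip and Atf6 were called in every one, and Canx and Sel1l in 20. Dnajb11 and Vcp were called in 17 and Creld2 in 9. The counts of 3 higher and 4 lower genes in the set held with both pseudocounts, both scalings, without haemoglobin genes, with robust variances and with the prefix as a covariate. In these fits 30.4 to 34.4% of all entries were called. With no filter 1 gene was higher, Atf6 (Dnajb11 at an adjusted p of 0.0598 and Creld2 at 0.125 by limma), and 15.5% of all entries then tested were called. With array weights 10 genes of the set were lower, and in the 7 wider lists 41 were higher and 38 lower, while 52.1% of all entries were called. With quantile normalization 27 wider genes were lower (34.4% of all entries called). In the OGF373 libraries alone, chosen after seeing the data, 1 gene of the set was higher and 1 lower, with 3 and 7 in the wider lists (11.6% of all entries called). Leaving out each library in turn gave 1 to 3 higher and 3 to 5 lower genes in the set, and 9 to 33 higher and 8 to 20 lower in the wider lists, the 33 without control library 3, where 39.2% of all entries were called (21.0 to 26.4% without any other library). Of the 27 genes not called, 8 were called in some alternative, all with array weights, and 12 changed sign in some alternative. The causes of these moves were not tested. Whether the replicate numbers pair the libraries was not settled. Correlations of deviations from the group means were 0.127, 0.158, -0.0116 and 0.0128 for same-numbered libraries 1 to 4. Differently numbered libraries had -0.123 to 0.102, so the values for numbers 1 and 2 were the highest. With a replicate block, 3 genes of the set were higher and 4 lower, and 16 and 18 in the wider lists (27.3% of all entries called). Read depth was not known, and the precision rests on 4 libraries per group.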
